A study of Arabidopsis thaliana with 6 samples.

Results

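The enzymes of the Calvin cycle and of photorespiration were followed in Arabidopsis thaliana Columbia-0 seedlings exposed to hydrogen peroxide (H2O2), a reactive oxygen species. Members were chosen by locus, with 23 Calvin cycle genes and 13 photorespiration genes listed. Of these 36, the table of 21430 probe sets held 29, namely 19 Calvin cycle and 10 photorespiration genes, and all 29 passed the filter on low values. The 4 Rubisco small subunit genes RBCS1A, RBCS1B, RBCS2B and RBCS3B, the phosphoglycolate phosphatase gene PGLP1 and the glycolate oxidase genes GOX1 and GOX2 were not analysed here. The H2O2 group had 3 samples given H2O2 to 10 mM at day 7 and collected 24 h later, and the mock group had 3 samples given an equal volume of water. All were wild-type plants in liquid medium with 1% sucrose, under 16 h light and 8 h dark, and each sample pooled 4 to 5 plants on 1 Affymetrix array. Whether the pools were grown as separate cultures is not labelled, so each p-value reflects only how far these pools spread, part of which may be technical. Values are log2 GCRMA values, in which 1 unit is a 2-fold difference.

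The Calvin cycle fixes CO2 in the chloroplast stroma in 3 phases. Rubisco carboxylates ribulose bisphosphate, the product is reduced to triose phosphate with ATP and NADPH, and most of the triose phosphate is rebuilt into the acceptor. Several of its enzymes are switched on in light by thioredoxins and are sensitive to oxidants such as H2O2. Photorespiration recovers carbon from phosphoglycolate, which Rubisco makes when it takes oxygen in place of CO2, and passes through chloroplast, peroxisome and mitochondrion. One of its peroxisomal steps releases H2O2.

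Calvin cycle transcripts were mostly lower after H2O2, by modest amounts. Of the 19 measured genes, 15 fell, 1 rose (CP12-3) and 3 did not pass (GAPA-1, FBA3 and TKL2). Of the 10 measured photorespiration genes, 6 fell, none rose and 4 did not pass. The largest decrease was that of PRK, to 58.4% of the mock level, and no member changed 2-fold. A call is an adjusted p under 0.05 in limma after Benjamini-Hochberg adjustment over all 15001 probe sets tested. This fit did not pair the arrays, and pairing them by replicate number changed no member's call.

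These counts have to be read against a wide response. Of all probe sets tested, 60.4% were called, 36.5% as lower and 23.9% as higher in H2O2, against 21 of 29 members (72.4%) as lower. The median log2 change was -0.37 for the Calvin cycle genes, -0.29 for the photorespiration genes and -0.10 for all probe sets tested. Relative to that overall median, the median member was lower by 0.23 (a difference of -0.23 on the log2 scale), and 23 of 29 members lay below it. With quantile normalization that difference shrank to -0.12. The comparison was not matched for signal level. On mock replicate 1 the mean log2 level was 10.48 for the members and 6.81 for all probe sets tested. Centring arrays on reference genes shifts all probe sets of an array alike, so it could not change this difference. The arrays of the 2 groups did not overlap for 24 of 29 members, 23 of them lower in H2O2, and for 67.2% of all probe sets tested. By direction, 6104 of all 15001 probe sets lay lower in H2O2 without overlap and 3984 higher. No test set the members apart from other genes.

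The scale of the arrays affects changes of this size. Centring each array on 8 reference genes raised the median change over all probe sets by 0.10. With it 10 Calvin cycle genes were lower and 1 higher, and 4 photorespiration genes were lower and 1, GGT2, higher. The reference genes were themselves not constant, with log2 changes of -0.26 for ACT2 and 0.40 for UBQ10, and 3 were called lower and 1 higher. With quantile normalization 17 members were lower and 1 higher, against 5486 lower and 3576 higher of all 15001 probe sets tested. Among all probe sets, 3584 were higher and 5482 lower in the values as deposited, and 4346 were higher and 4081 lower with reference gene centring. In both settings PRK, GAPA-2, GAPB, FBA1, FBA2, HCEF1, SBPASE, RPI3, CP12-1 and CP12-2 of the Calvin cycle and AGT1, GDCH, GDT and GLYK of photorespiration were called lower, and CP12-3 was called higher.

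**Figure D1:**
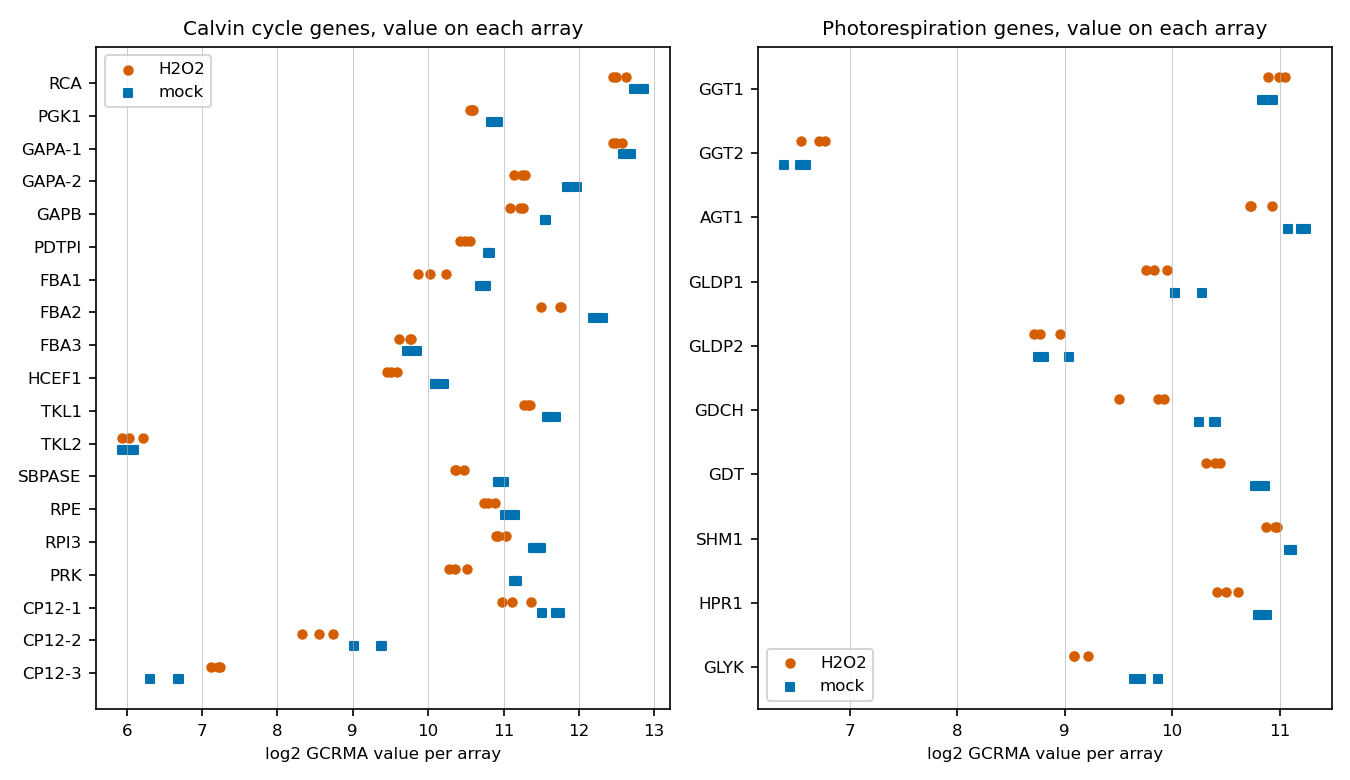
The log2 GCRMA value of each measured gene on each array, in 2 panels, with 3 H2O2 arrays as circles and 3 mock arrays as squares. For 23 of 29 genes all H2O2 points lie left of all mock points, and for CP12-3 they lie right. Of all 15001 probe sets tested, 6104 had every H2O2 value below every mock value and 3984 above.

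The samples were checked for organ and array differences. The labels name leaf as tissue and seedling as source. Of 10 root markers measured, 9 were tested, and 6 fell, 1 rose (NRT2.1) and 2 did not pass (PYK10 and CASP4). Over all probe sets tested 36.5% fell and 23.9% rose. The log2 changes were -2.08 for PRP3, -1.76 for XTH14, -1.57 for EXPA7 and -0.78 for COBL9. They were -0.30 for both CASP1 and MRN1, 1.03 for NRT2.1, -0.05 for PYK10 and 0.16 for CASP4. The root markers thus did not change alike. PYK10, a root marker, was at 11.96 ± 0.11 in H2O2 and 12.02 ± 0.05 in mock (log2, SD, n = 3 each), far above the filter level. Of 5 green shoot markers measured, CA2 and YAB3 fell and 3 did not pass. Summed on the linear scale, the root markers came to between 4192 and 4822 in H2O2 and between 5301 and 5616 in mock. PYK10, by far the highest root marker, makes up most of that sum, and no sum without it was made. The green shoot markers summed to between 3256 and 4106 in H2O2 and between 5267 and 5626 in mock. Without CA2 the sum of the other 4 green shoot markers overlapped between the groups, at 1277 to 1667 in H2O2 and 1561 to 1785 in mock. THAS1, a root marker, was under the filter level in both groups, with log2 means of 3.01 in H2O2 and 3.02 in mock, and no marker was at 0. In such pools, fewer green cells and less RNA per cell cannot be told apart, and the part of organ shares in the results was not tested. Array medians lay between 5.66 and 5.74, the labels give no batch, and the number of arrays limits precision.

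The carboxylation phase was represented by RCA (AT2G39730), the activase that frees Rubisco of inhibitory sugar phosphates. RCA had log2 values of 12.62, 12.49 and 12.45 in H2O2, against 12.84, 12.86 and 12.73 in mock. The groups did not overlap, and RCA fell by 0.29 (SE 0.08, adjusted p = 0.0139), to 81.8% of mock. This value is among the most dependent on the setting. Its call was lost with reference gene centring (-0.19, adjusted p = 0.113), with quantile normalization (-0.07, adjusted p = 0.412) and without mock replicate 2 (-0.26, adjusted p = 0.0521).

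In the reduction phase, 4 of 5 genes fell and 1 did not pass. PGK1 (AT3G12780), whose product phosphorylates phosphoglycerate, had values of 10.60, 10.58 and 10.56 in H2O2, against 10.83, 10.90 and 10.92 in mock. PDTPI (AT2G21170), the plastid triose phosphate isomerase gene, had values of 10.56, 10.49 and 10.42 in H2O2, against 10.80, 10.79 and 10.82 in mock. Both fell by a similar amount, PGK1 by 0.30 (SE 0.07, adjusted p = 0.00546) and PDTPI by 0.32 (SE 0.07, adjusted p = 0.00551). Both calls were narrowly lost with reference gene centring, with adjusted p of 0.0544 for PGK1 and 0.0525 for PDTPI.

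Among the genes of the chloroplast glyceraldehyde phosphate dehydrogenase, which uses NADPH to reduce bisphosphoglycerate, GAPA-2 and GAPB fell and GAPA-1 did not pass. GAPA-2 (AT1G12900) had values of 11.25, 11.29 and 11.14 in H2O2, against 11.97, 11.84 and 11.88 in mock. GAPB (AT1G42970), the subunit that carries a CP12-like regulatory tail, had values of 11.26, 11.21 and 11.09 in H2O2, against 11.56, 11.55 and 11.56 in mock. GAPA-2 fell by 0.67 (SE 0.08, adjusted p = 0.000143), to 62.7% of mock, and GAPB by 0.37 (SE 0.08, adjusted p = 0.00307), to 77.5% of mock. GAPA-1 (AT3G26650) had values of 12.58, 12.46 and 12.50 in H2O2, against 12.66, 12.59 and 12.69 in mock. Its groups did not overlap, yet its change of -0.13 did not pass (95% interval -0.30 to 0.03, adjusted p = 0.147), and with quantile normalization it was 0.086 (adjusted p = 0.400). GAPA-1 and GAPA-2 encode similar proteins, and how far their probe sets share signal was not tested.

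In the regeneration phase, which rebuilds the CO2 acceptor, 8 of 10 genes fell and 2 did not pass. PRK (AT1G32060), whose enzyme phosphorylates ribulose phosphate to the acceptor, had values of 10.51, 10.35 and 10.27 in H2O2, against 11.18, 11.15 and 11.13 in mock. The 3 mock arrays lay close together and well above every H2O2 array. PRK fell by 0.78 (SE 0.08, adjusted p = 9.1e-05), with a 95% interval of -0.97 to -0.59.

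Both bisphosphatase genes of the cycle, whose enzymes catalyse steps that run in 1 direction only, fell. HCEF1 (AT3G54050), the chloroplast fructose bisphosphatase gene, had values of 9.59, 9.51 and 9.45 in H2O2, against 10.09, 10.10 and 10.22 in mock. SBPASE (AT3G55800), the sedoheptulose bisphosphatase gene, had values of 10.47, 10.37 and 10.36 in H2O2, against 10.92, 10.93 and 11.01 in mock. Neither gene had overlapping groups, and HCEF1 fell by 0.62 (SE 0.08, adjusted p = 0.000226) and SBPASE by 0.55 (SE 0.07, adjusted p = 0.000305).

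Of the plastid aldolase genes, FBA1 and FBA2 fell and FBA3 did not pass. Aldolase joins triose phosphates into the sugar bisphosphates that the bisphosphatases use. FBA1 (AT2G21330) had values of 10.23, 10.02 and 9.87 in H2O2, against 10.77, 10.69 and 10.76 in mock. FBA2 (AT4G38970) had values of 11.76, 11.75 and 11.50 in H2O2, against 12.24, 12.31 and 12.19 in mock. FBA1 fell by 0.70 (SE 0.10, adjusted p = 0.000465) and FBA2 by 0.58 (SE 0.09, adjusted p = 0.000789), which left FBA1 at 61.6% and FBA2 at 66.7% of mock. FBA3 (AT2G01140) had values of 9.76, 9.77 and 9.61 in H2O2, against 9.76, 9.85 and 9.73 in mock. Its groups overlapped, and its change of -0.07 did not pass (95% interval -0.25 to 0.12), turning to 0.035 with reference gene centring and to -0.015 without H2O2 replicate 3.

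The remaining regeneration genes encode enzymes that rearrange and interconvert sugar phosphates. RPI3 (AT3G04790), a ribose phosphate isomerase gene, had values of 10.90, 11.03 and 10.93 in H2O2, against 11.50, 11.39 and 11.44 in mock, and fell by 0.49 (SE 0.08, adjusted p = 0.000676). TKL1 (AT3G60750), a transketolase gene, averaged 11.32 ± 0.04 in H2O2 and 11.63 ± 0.06 in mock, and fell by 0.31 (SE 0.07, adjusted p = 0.00612). RPE (AT5G61410), the ribulose phosphate epimerase gene, averaged 10.81 ± 0.08 in H2O2 and 11.09 ± 0.07 in mock, and fell by 0.28 (SE 0.08, adjusted p = 0.0136). The last 2 of these calls, unlike that of RPI3, depended on the scaling. With reference gene centring TKL1 changed by -0.21 (adjusted p = 0.0539) and RPE by -0.18 (adjusted p = 0.111), with quantile normalization TKL1 by -0.16 and RPE by -0.19 without passing, and RPE did not pass without mock replicate 3 (adjusted p = 0.0506). TKL2 (AT2G45290), the second transketolase gene, averaged 6.06 ± 0.14 in H2O2 and 6.03 ± 0.08 in mock, and its change of 0.03 did not pass (95% interval -0.18 to 0.25).

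The genes of CP12, a small protein that binds glyceraldehyde phosphate dehydrogenase and PRK into an inactive complex when its cysteines are oxidised, split by direction. CP12-2 (AT3G62410) had values of 8.73, 8.55 and 8.32 in H2O2, against 9.38, 9.01 and 9.39 in mock. CP12-1 (AT2G47400) had values of 11.12, 11.37 and 10.98 in H2O2, against 11.50, 11.75 and 11.70 in mock. CP12-2 fell by 0.73 (SE 0.14, adjusted p = 0.00199) and CP12-1 by 0.50 (SE 0.12, adjusted p = 0.00577). CP12-3 (AT1G76560) had values of 7.12, 7.23 and 7.21 in H2O2, against 6.31, 6.70 and 6.68 in mock. It was the only member called higher, rising by 0.63 (SE 0.11, adjusted p = 0.0015), to 154% of mock. The lowest mock value was that of replicate 1, and without it CP12-3 was higher by 0.50 (adjusted p = 0.00202).

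**Figure D2:**
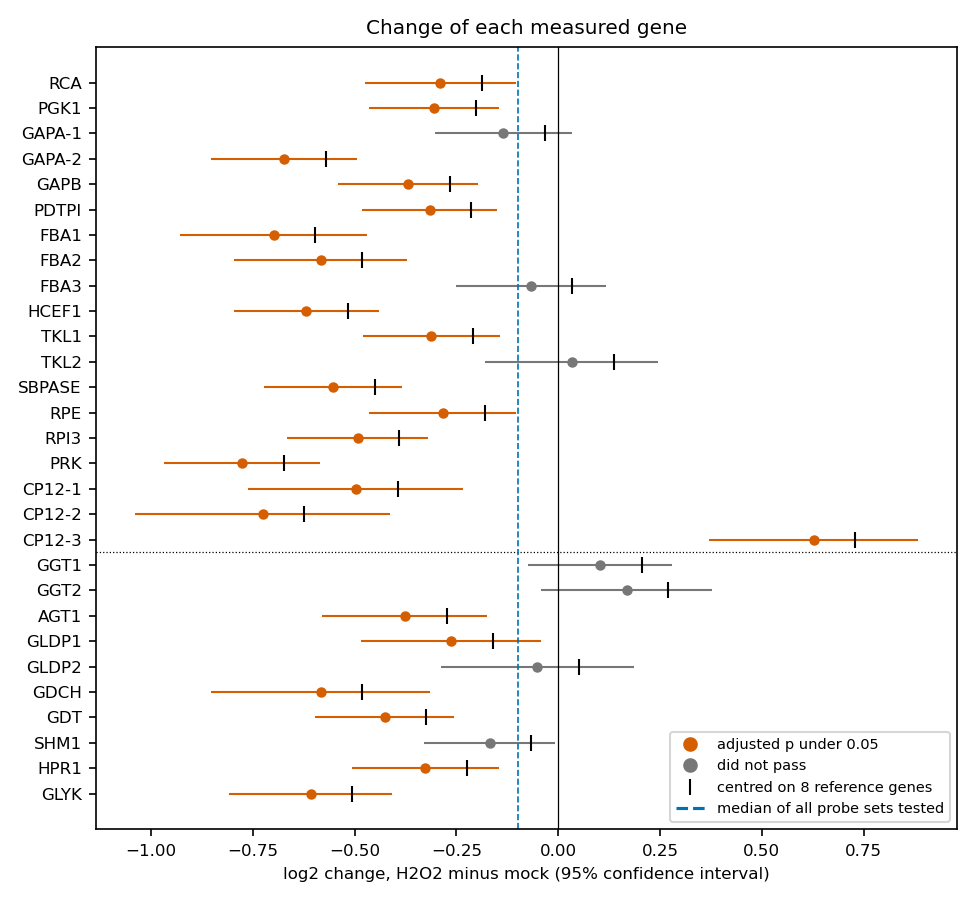
Log2 change of each measured gene, H2O2 minus mock, with its 95% confidence interval, Calvin cycle genes above the dotted line and photorespiration genes below it. Circles are coloured where the adjusted p was under 0.05, ticks give the change with arrays centred on 8 reference genes, and the dashed line is the median of all probe sets tested, at -0.10.

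Of the measured photorespiration genes, 1 acts in the chloroplast, 4 in the peroxisome and 5 in the mitochondrion. The chloroplast gene GLYK (AT1G80380), whose glycerate kinase returns carbon to the Calvin cycle in the last step, had values of 9.22, 9.08 and 9.09 in H2O2, against 9.64, 9.71 and 9.87 in mock. GLYK fell by 0.61 (SE 0.09, adjusted p = 0.000469), to 65.6% of mock. This was the largest change among the 10 measured photorespiration genes.

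In the peroxisome, where glycolate is oxidised and glyoxylate is aminated to glycine, 2 of 4 measured genes fell. AGT1 (AT2G13360), which encodes the aminotransferase that takes serine as amino donor, had values of 10.93, 10.73 and 10.73 in H2O2, against 11.20, 11.07 and 11.25 in mock. HPR1 (AT1G68010), the hydroxypyruvate reductase gene, had values of 10.61, 10.50 and 10.42 in H2O2, against 10.88, 10.80 and 10.83 in mock. AGT1 fell by 0.38 (SE 0.09, adjusted p = 0.00617) and HPR1 by 0.33 (SE 0.08, adjusted p = 0.00697), the call of HPR1 being lost with reference gene centring (-0.22, adjusted p = 0.0562). The genes of the other aminotransferase, which takes glutamate, did not pass. GGT1 (AT1G23310) averaged 10.98 ± 0.08 in H2O2 and 10.88 ± 0.06 in mock, a change of 0.10 with a 95% interval of -0.07 to 0.28. GGT2 (AT1G70580) averaged 6.67 ± 0.12 in H2O2 and 6.51 ± 0.11 in mock, a change of 0.17 (adjusted p = 0.144) that passed as higher with reference gene centring (0.27, adjusted p = 0.0390).

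In the mitochondrion, glycine decarboxylase and serine hydroxymethyltransferase turn glycine into serine with release of CO2 and ammonia. GDCH (AT2G35370), which encodes the lipoyl-carrying H protein, had values of 9.87, 9.92 and 9.51 in H2O2, against 10.39, 10.41 and 10.25 in mock. GDT (AT1G11860), which encodes the T protein, had values of 10.45, 10.40 and 10.32 in H2O2, against 10.77, 10.87 and 10.81 in mock. GDCH fell by 0.58 (SE 0.12, adjusted p = 0.00279) and GDT by 0.43 (SE 0.07, adjusted p = 0.00132).

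The P protein, the decarboxylating subunit, has 2 genes, of which GLDP1 fell and GLDP2 did not pass. GLDP1 (AT4G33010) had values of 9.95, 9.83 and 9.76 in H2O2, against 10.28, 10.02 and 10.03 in mock. It fell by 0.26 (SE 0.10, adjusted p = 0.0426), the call nearest to the threshold among the members. That call was lost with reference gene centring (-0.16, adjusted p = 0.206), with quantile normalization, without the filter, with array weights and without variance moderation. It was also lost without any one of the mock replicates (-0.18 to -0.31, adjusted p from 0.0507 to 0.140) and without H2O2 replicate 2 (adjusted p = 0.0911) or 3 (adjusted p = 0.119). GLDP2 (AT2G26080) averaged 8.82 ± 0.13 in H2O2 and 8.87 ± 0.15 in mock, a change of -0.05 that did not pass (95% interval -0.29 to 0.19). SHM1 (AT4G37930), the serine hydroxymethyltransferase gene of this pathway, had values of 10.98, 10.96 and 10.88 in H2O2, against 11.11, 11.12 and 11.09 in mock. Its groups did not overlap, and its change of -0.17 lay just outside the threshold (adjusted p = 0.0671). The call was gained with arrays centred on their medians (adjusted p = 0.0365), with the stricter filter, with a trended, robust prior and without variance moderation.

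Members of the same enzyme or complex were then compared within arrays, which removes a shift shared by all probe sets of an array but not a scaling that depends on the level. Of 14 pairs listed, 9 had both genes measured, and the difference between the 2 log2 values on each array was compared between groups by a two-sided exact permutation test. This test left out the pairing by replicate number. With 3 unpaired arrays against 3 the smallest p possible is 0.1, so no pair could pass. Over the 9 pairs the smallest adjusted p was 0.15. The groups did not overlap for 6 of 9 pairs. For single probe sets the share without overlap was already 67.2%, and no other pairs were compared, so this count does not set the pairs apart.

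The widest shift was that of CP12-2 against CP12-3. Their difference averaged 1.35 ± 0.25 in H2O2 and 2.70 ± 0.37 in mock (log2, SD, n = 3 each), a shift of -1.35 (exact permutation p = 0.1). FBA1 against FBA3 averaged 0.33 ± 0.12 in H2O2 and 0.96 ± 0.10 in mock, a shift of -0.63. GAPA-1 against GAPA-2 averaged 1.29 ± 0.10 in H2O2 and 0.75 ± 0.06 in mock, a shift of 0.54. In each of these 3 pairs every H2O2 array lay on 1 side of every mock array. Smaller shifts without overlap were those of TKL1 against TKL2 (-0.35), GAPA-1 against GAPB (0.23) and GLDP1 against GLDP2 (-0.21). FBA1 against FBA2 (-0.11), CP12-2 against CP12-1 (-0.23) and GGT1 against GGT2 (-0.07) overlapped. With 1 array left out, these shifts lay between -0.17 and -0.07 for FBA1 against FBA2, between -0.40 and -0.10 for CP12-2 against CP12-1 and between -0.12 and -0.03 for GGT1 against GGT2. With quantile normalization, tried after the data were seen, TKL1 against TKL2 shifted by -0.18 and its groups overlapped, FBA1 against FBA2 shifted by -0.19, and GGT1 against GGT2 turned to 0.018. The other 6 pairs kept their direction, and 5 of them their lack of overlap.

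**Figure D3:**
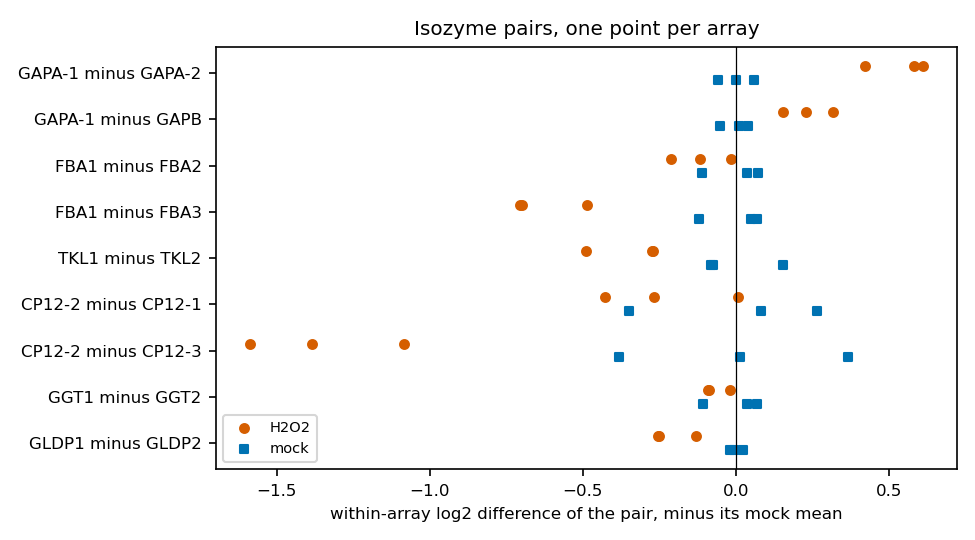
Within-array log2 difference of each gene pair, minus its mean in mock, with 1 point per array, H2O2 as circles and mock as squares. In 6 of 9 pairs the H2O2 points lie on 1 side of all mock points, farthest for CP12-2 minus CP12-3. Among single probe sets 67.2% did not overlap.

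Genes for the same or a related reaction outside the Calvin cycle list, mostly of cytosolic glycolysis, gave a mixed picture. For the 6 enzymes measured both in and outside the list, 8 of 10 list members fell and 2 did not pass. The 13 other genes split into 6 that rose, 3 that fell and 4 with no call. ALDH11A3, among those that rose, was grouped under GAPDH but is an aldehyde dehydrogenase, not an isozyme of GAPA and GAPB. With reference gene centring 7 of the 13 rose and 2 fell. Over all 15001 probe sets tested, 23.9% rose and 36.5% fell as deposited, and 4346 rose and 4081 fell with reference gene centring. PGK (AT1G79550), the cytosolic phosphoglycerate kinase gene, had values of 11.44, 11.43 and 11.55 in H2O2, against 10.64, 10.72 and 10.62 in mock, and rose 1.76-fold (log2 change 0.82, SE 0.07). The cytosolic aldolase gene FBA6 (AT2G36460) had values of 10.69, 10.60 and 10.66 in H2O2, against 9.85, 9.93 and 9.97 in mock, and rose 1.66-fold (log2 change 0.73, SE 0.07). These 2 genes thus moved opposite to PGK1 and to FBA1 and FBA2.

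Other isozymes did not follow that split. FBP (AT1G43670), the cytosolic fructose bisphosphatase gene of sucrose synthesis, averaged 8.68 ± 0.08 in H2O2 and 9.12 ± 0.04 in mock, and fell by 0.44, as did HCEF1 in the chloroplast by 0.62. FBA7 (AT4G26520), an aldolase gene with low values, fell by 0.63 (SE 0.14). The remaining genes were named after their values were seen. GAPC1, ALDH11A3, RSW10 and FBA8 rose by 0.25 to 0.43 on the log2 scale and RPI2 fell by 0.31. GAPC2, TPI, FBA4 and FBA5 did not pass. The difference between list members and other isozymes was not tested.

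**Figure D4:**
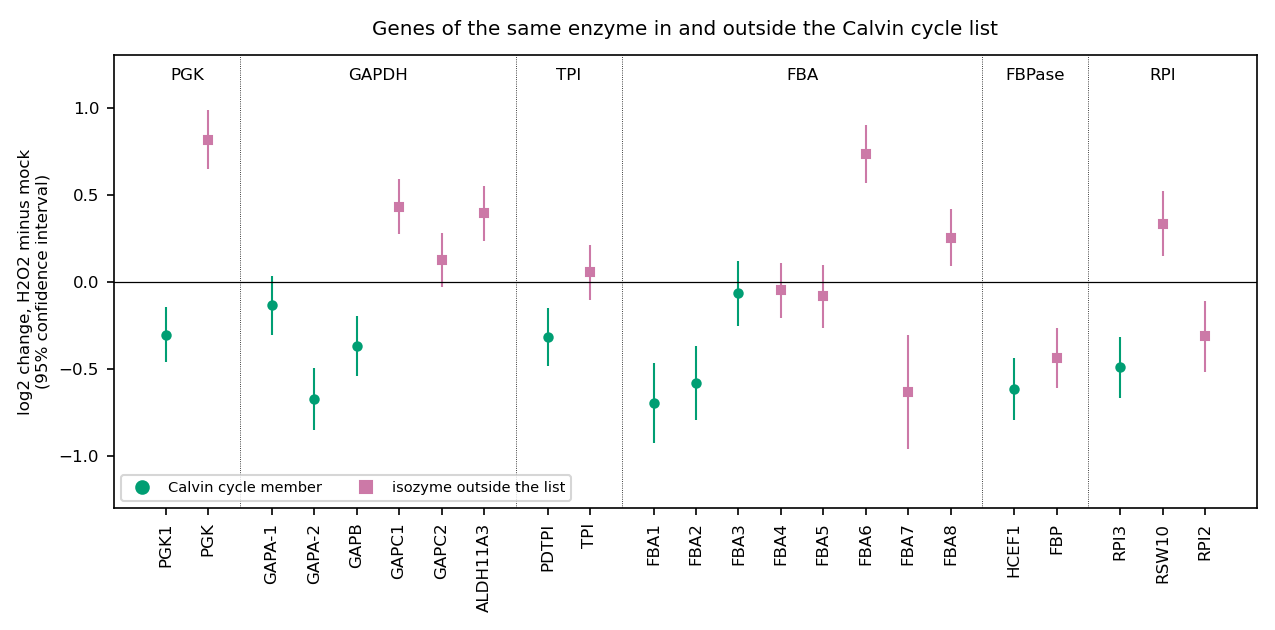
Log2 change, H2O2 minus mock, with 95% confidence interval for genes grouped by enzyme (PGK, phosphoglycerate kinase; GAPDH, glyceraldehyde phosphate dehydrogenase; TPI, triose phosphate isomerase; FBA, aldolase; FBPase, fructose bisphosphatase; RPI, ribose phosphate isomerase), Calvin cycle members as circles and other isozymes as squares. Of the 10 members 8 fell, and of the 13 other genes 6 rose and 3 fell. The other genes include ALDH11A3, which is not an isozyme of GAPA and GAPB.

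Further genes of photorespiration, of its enzyme families and of its nitrogen and carbon transport, not among the members, form the other photorespiration list. Of its 21 measured genes 11 fell, 4 rose and 6 did not pass, against 36.5% lower and 23.9% higher over all probe sets tested. Genes listed by enzyme family, among them GOX3, SHM6 and SHM7 below, need not act in photorespiration themselves. With reference gene centring 7 fell and 5 rose, against 4081 lower and 4346 higher of all 15001 probe sets tested. GOX3 (AT4G18360), a glycolate oxidase family gene whose enzyme is known to oxidise lactate in roots, had values of 7.07, 7.36 and 7.51 in H2O2, against 5.10, 4.85 and 4.79 in mock, and rose 5.27-fold (SE of the log2 change 0.13). SHM7 (AT1G36370), a serine hydroxymethyltransferase family gene, had values of 9.86, 9.70 and 9.99 in H2O2, against 7.57, 7.64 and 8.14 in mock, and rose 4.19-fold (log2 change 2.07, SE 0.15). Both changes exceed that of any member. AGT3 (AT2G38400), named for an alanine:glyoxylate aminotransferase, fell by 1.15 (SE 0.15), and SHM6 (AT1G22020) rose by 0.66 (SE 0.08).

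Genes listed for Rubisco assembly, chloroplast chaperonins and chloroplast thioredoxins were mostly lower as well. Being listed does not show that a gene acts on Rubisco or on a Calvin cycle enzyme. Among genes of Rubisco assembly and modification and the chloroplast chaperonins, 7 of 10 fell and 2 rose. Over all probe sets tested 36.5% fell and 23.9% rose. CPN60B4 (AT1G26230), a chaperonin subunit gene, fell by 0.89 (SE 0.10), and LSMT-L (AT1G14030), named for the methyltransferase of the Rubisco large subunit, by 0.75 (SE 0.07). The Rubisco assembly chaperone genes went opposite ways, as RBCX1 (AT4G04330) fell by 0.81 (SE 0.11) and RBCX2 (AT5G19855) rose by 0.64 (SE 0.09). Among 12 genes of the chloroplast thioredoxin system, parts of which reduce and activate Calvin cycle enzymes in light, 10 fell and 2 did not pass. These 2, TRXM3 and TRXY1, were named after their values were seen. TRXY1 had a change of 0.24 (adjusted p = 0.0671) that passed as higher when replicates were paired by number in a replicate block (adjusted p = 0.0244), with reference gene centring, with array weights and without mock replicate 1 or H2O2 replicate 2. The largest changes were those of FTRA1 (AT5G23440) and FTRA2 (AT5G08410), subunit genes of ferredoxin-thioredoxin reductase, at -0.79 (SE 0.11) and -0.68 (SE 0.11), of TRXY2 (AT1G43560) at -0.74 (SE 0.12) and of TRXF2 (AT5G16400) at -0.67 (SE 0.13).

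The median log2 change was -0.45 for the Rubisco assembly list, -0.58 for the thioredoxin list and -0.24 for the other photorespiration list. The other photorespiration median was -0.13 after quantile normalization, while reference gene centring gave -0.14, and that of the Calvin cycle genes was -0.22 with quantile normalization. Among nuclear photosystem, antenna and electron transport genes, 37 of 42 fell and 5 did not pass, against 36.5% lower over all probe sets tested. These 42 genes had a median of -0.36, next to -0.37 for the Calvin cycle genes. Their largest changes were those of ATPD at -1.06, PETE1 at -0.96, PSBO2 at -0.80 and FNR2 at -0.67. With quantile normalization or reference gene centring 24 of the 42 fell. No test compared these lists with each other.

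**Figure D5:**
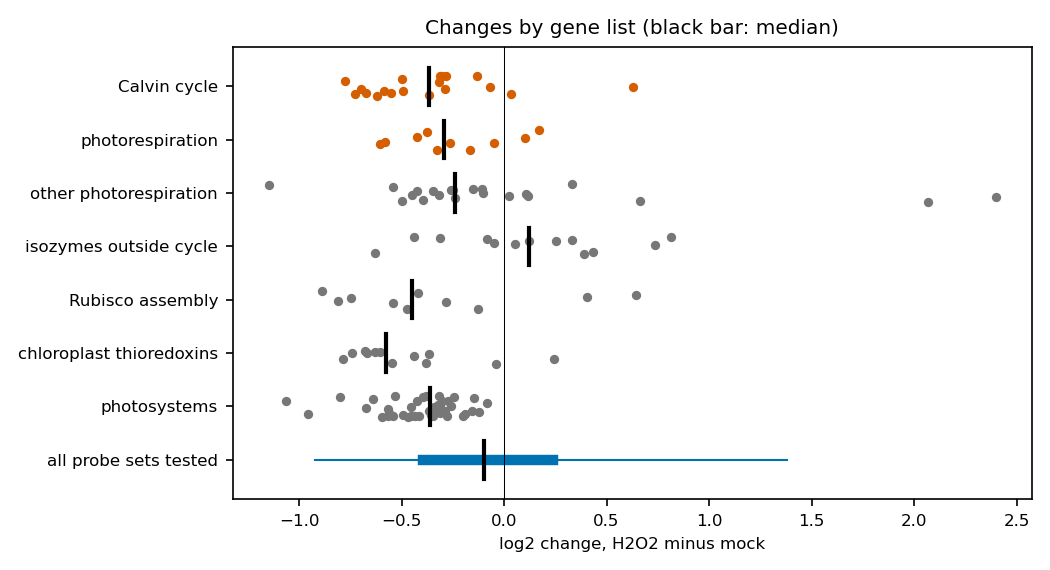
Log2 change, H2O2 minus mock, of each measured gene by list, with the list median as a black bar. For all probe sets tested the thick line spans the 25th to 75th percentile (-0.39 to 0.24) and the thin line the 5th to 95th (-0.92 to 1.38).

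The values of the members differed between the 3 H2O2 arrays, and most members were lowest on the same array. Replicate 3 gave the lowest of the 3 H2O2 values for 21 of 29 members and replicate 1 the highest for 22. The median deviation of the members from their mock means was -0.27, -0.34 and -0.42 on H2O2 replicates 1, 2 and 3, against 0.01, -0.03 and 0.01 on the mock replicates. Over all probe sets tested the same quantity was -0.10, -0.08 and -0.10 on the H2O2 arrays. The difference between arrays seen in the members was thus not seen in all probe sets. The photosystem list gave -0.32, -0.33 and -0.47 on the same H2O2 arrays. Without H2O2 replicate 1 the median change of the members was -0.38, and 21 were lower and 1 higher.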

How the data were processed

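Per the submitters' processing notes the deposited values are GCRMA values, which correct background by probe sequence, normalize between arrays and summarise probes. The log2 scale of the deposited values was read from their range, 1.55 to 13.2. No source used here names the GCRMA version, the chip or how probe sets were defined. GCRMA pulls low signals together, and normalizing between arrays takes out overall differences in RNA content. Each probe set carries 1 locus. Symbols came from the RefSeq gene table of assembly TAIR10.1 (names only), with 21231 loci matched and 199 not. Of the loci listed for related groups, 17 with no symbol there were left out. Loci with identical values on all arrays numbered 221, with no member among them.

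The filter dropped the 6429 probe sets whose 6-array mean was below 3.79, the 30th percentile. Changes of H2O2 minus mock in the 15001 others were fitted in limma 3.58.1 (R 4.3.3, moderated statistics), and p-values were adjusted by Benjamini-Hochberg with a threshold of 0.05. Pairs were tested with scipy 1.17.1. The limma script was tested on simulated data with few changed probe sets and no pairing of arrays. In the data here 60.4% of probe sets were called, so that test checks the code and not these calls. All members were named, and of each related list up to 4 called genes with the largest changes. The members, lists and pairs were chosen with earlier results of these data known. Groups came from the labels, which number replicates alike in both groups. Deviations from group means correlated at 0.19, 0.21 and 0.21 between arrays of the same number, so the numbers were taken to pair the samples. The main fit, its standard errors and the test of gene pairs left this pairing out. The paired fit was an alternative, beside other filters, scalings, priors, weights and each array left out.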

Additional observations from a re-analysis of the deposited data

How the results depend on the processing

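Over 16 alternatives (other filters, low values raised, 3 other scalings, other priors, weighted arrays, a replicate block, and leaving out any one array), 16 of the 29 measured members kept their direction and their side of the threshold throughout and 13 did not in at least 1. Calvin cycle genes called lower numbered 10 to 15 of 19 and photorespiration genes 4 to 7 of 10. Leaving out 1 array gave 14 to 15 and 5 to 6, against 4611 to 5317 of all probe sets called lower. In either direction 7926 to 8681 probe sets were then called, and the median member change was -0.38 to -0.32. Quantile normalization gave a median of -0.22 and reference gene centring also gave -0.22. The medians of all probe sets tested were then -0.10 and 0.0039, and 5486 and 4081 of them were called lower. With reference gene centring 7 genes of the other photorespiration list were lower. Photosystem genes called lower numbered 24 under either of these scalings, and 32 to 37 with an array left out. In the thioredoxin list 1 gene, TRXY1, was called higher with reference gene centring, array weights or the replicate block, and 0 to 1 with an array left out. Uncalled members that changed sign were GAPA-1 (0.086, quantile normalization), FBA3 (0.035, reference genes), TKL2 (-0.010 without mock replicate 3, -0.043 without H2O2 replicate 3) and GLDP2 (0.051, reference genes). GLDP2 was also 0.035 without mock replicate 1. With 1 array left out, TKL2 ranged from -0.043 to 0.094, GLDP2 from -0.12 to 0.035, FBA3 from -0.097 to -0.015, GGT1 from 0.067 to 0.15 and GGT2 from 0.11 to 0.23. The within-array shift of GGT1 against GGT2 was 0.018 with quantile normalization. The cause of these shifts was not tested. In the paired fit with the replicate number as a block 9424 probe sets were called, and 15 Calvin cycle and 6 photorespiration genes were lower, with no member's call changed. With 3 arrays a group, changes near 0.2 on the log2 scale lie at the limit of what could be called.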
